A study of Rattus norvegicus with 6 samples.

Results

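The Cyp2b subfamily of cytochromes P450 was examined in rat liver after repeated dosing with TBBC, a phenolic antioxidant in which sulfur joins a pair of tert-butyl cresol rings. Probes belonged to the subfamily when their RefSeq accession named Cyp2b1, Cyp2b2, Cyp2b3, Cyp2b12, Cyp2b15 or Cyp2b21. This selected 15 probes for 6 genes, out of 61537 probes and 15645 named genes on the array. Cyp2b2 had 5 probes, Cyp2b15 had 3, Cyp2b3, Cyp2b12 and Cyp2b21 had 2 each, and Cyp2b1 had 1. The related genes Cyp2b14 and Cyp2b14l1 had no probe by RefSeq accession. The livers came from 6 male Sprague-Dawley rats of the stock Crl:CD(SD), and total RNA of each animal was hybridised to a 1-colour array of its own. In the vehicle group (n = 3) rats received corn oil, and in the TBBC group (n = 3) they received TBBC at 300 mg/kg/day. The animals were 5 weeks old when bought. The labels give 28 days in one place and 9 weeks in another, so the length of dosing is uncertain.

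Cytochromes P450 of the Cyp2b subfamily are haem enzymes of the endoplasmic reticulum that oxidise drugs, steroids and other lipophilic chemicals, with electrons passed to them by the reductase Por. In rat liver Cyp2b1 and Cyp2b2 are the classical phenobarbital-inducible members. Their transcription is switched on by the nuclear receptor CAR (Nr1i3), and in part by PXR (Nr1i2), each bound to DNA with the retinoid receptor Rxra at an enhancer farther upstream than the windows shown here. Cyp2b3 is a liver-expressed member that phenobarbital is known not to induce in rats, and Cyp2b12 is known from rat sebaceous glands.

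Cyp2b1, Cyp2b2 and Cyp2b12 each had a probe that rose with TBBC (for Cyp2b12, 1 of its 2 probes), whereas neither probe of Cyp2b3 rose. Cyp2b15 and Cyp2b21 also had probes that rose, and the matches in their windows are described below without the letters. The promoter windows of the 4 members Cyp2b1, Cyp2b2, Cyp2b3 and Cyp2b12 are shown here. Each runs 5′ to 3′ from 250 bases before to 50 bases after the start annotated by RefSeq on assembly GRCr8, that is Cyp2b1 chr1:90645869-90646168 (+), Cyp2b2 chr1:90722031-90722330 (+), Cyp2b3 chr1:90780242-90780541 (+) and Cyp2b12 chr1:91135044-91135343 (+). Capitals mark TTGCATAA (a motif of the C/EBP type), CATAAAAG (a TATA-like box) and AGGTCA (the half-site that nuclear receptors bind), each searched on both strands.
Cyp2b1: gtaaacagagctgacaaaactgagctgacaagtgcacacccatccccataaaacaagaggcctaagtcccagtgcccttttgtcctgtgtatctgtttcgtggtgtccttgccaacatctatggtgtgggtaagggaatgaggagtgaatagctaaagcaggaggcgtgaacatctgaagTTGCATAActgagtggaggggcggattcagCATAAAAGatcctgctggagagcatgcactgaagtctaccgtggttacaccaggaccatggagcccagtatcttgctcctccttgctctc
Cyp2b2: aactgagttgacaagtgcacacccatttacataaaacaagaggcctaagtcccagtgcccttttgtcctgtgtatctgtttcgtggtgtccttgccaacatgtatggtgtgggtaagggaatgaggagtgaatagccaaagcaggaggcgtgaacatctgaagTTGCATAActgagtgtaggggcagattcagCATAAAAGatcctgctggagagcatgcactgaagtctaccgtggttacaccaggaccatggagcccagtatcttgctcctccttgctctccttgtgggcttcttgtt
Cyp2b3: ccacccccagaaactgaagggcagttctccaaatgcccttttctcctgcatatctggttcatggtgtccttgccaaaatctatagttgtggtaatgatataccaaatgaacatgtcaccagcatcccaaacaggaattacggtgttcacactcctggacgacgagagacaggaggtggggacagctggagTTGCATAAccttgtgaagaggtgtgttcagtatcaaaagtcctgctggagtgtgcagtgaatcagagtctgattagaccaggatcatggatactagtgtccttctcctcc
Cyp2b12: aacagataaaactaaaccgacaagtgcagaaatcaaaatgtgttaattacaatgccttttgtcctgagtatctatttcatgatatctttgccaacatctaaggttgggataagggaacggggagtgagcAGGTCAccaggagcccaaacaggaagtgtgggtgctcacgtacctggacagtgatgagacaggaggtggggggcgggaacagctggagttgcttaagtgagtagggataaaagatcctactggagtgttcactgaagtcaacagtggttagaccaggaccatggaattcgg

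The windows of Cyp2b1 and Cyp2b2 were identical at 275 of 283 aligned bases (97.2%), and those of Cyp2b12 and Cyp2b15 at 230 of 248 (92.7%). The window of Cyp2b3 was 72.9% identical to that of Cyp2b1 and 71.3% identical to that of Cyp2b2. For the window of Cyp2b12 these values were 76.4% and 73.2%, for Cyp2b15 80.1% and 79.4%, and for Cyp2b21 79% and 78%. TTGCATAA stood in the windows of Cyp2b1, Cyp2b2, Cyp2b3 and Cyp2b21, beginning 70, 87, 60 and 77 bases before the annotated start. It was found in 0.863% of the 33469 rat promoter windows of the same length. CATAAAAG stood in the windows of Cyp2b1, Cyp2b2 and Cyp2b21, beginning 40, 57 and 47 bases before the start, against 1.06% of all windows. AGGTCA stood in the windows of Cyp2b12, Cyp2b15 and Cyp2b21, against 16.2% of all windows. Only exact matches were counted. The windows of Cyp2b12 and Cyp2b15 hold TTGCTTAA and GATAAAAG, which differ from TTGCATAA and CATAAAAG by a single base each. The letters CATAAAAG and TTGCATAA do not overlap in these windows, and the motifs were chosen after the sequences had been seen.

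**Figure D1:**
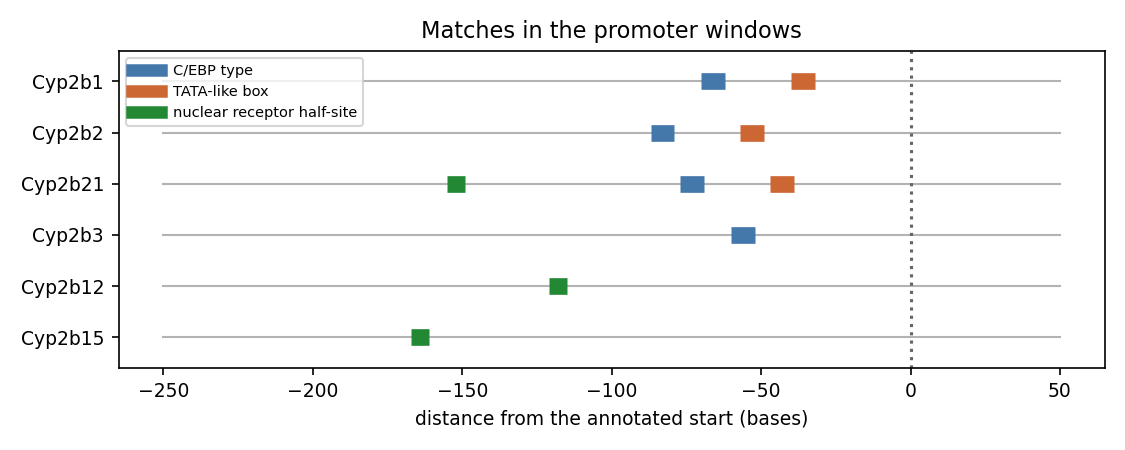
Positions of 3 motifs in the promoter windows of the 6 Cyp2b genes, in bases from the annotated start (dotted line). Coloured blocks are exact matches, grey lines the windows. Cyp2b1, Cyp2b2 and Cyp2b21 hold both TTGCATAA and CATAAAAG, and Cyp2b21 also holds AGGTCA. In Cyp2b12 and Cyp2b15 AGGTCA is the only exact match, and near matches are not drawn.

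Signals are given below as scaled signal, the processed spot intensity divided by the array's 75th percentile, and differences are TBBC minus vehicle in log2 units, followed by limma's moderated standard error. Of the 61537 probes, 37222 exceeded background clearly on every array of either group and were tested. The threshold was a Benjamini-Hochberg adjusted p of 0.05 over all of them. The 75th percentile of the processed signal lay between 465.2 and 638.2, 1 to 3 probes per array were saturated, and the number of arrays limits the precision. Hepatocyte markers were well above background on all 6 arrays for 10 of 10 genes; 2 of them, the plasma protein genes Apoa1 and Ahsg, fell by 1.00 and 0.83, and the summed scaled signal of the 10 was 5946 to 6946 in vehicle and 5176 to 5321 in TBBC arrays. All vehicle arrays lay on 1 slide and scan and all TBBC arrays on another, so slide and treatment cannot be told apart. Among markers of other cell types, the cholangiocyte marker Epcam rose by 1.83 ± 0.21, and the summed scaled signal of the 5 tested cholangiocyte markers was 1.13 to 1.30 in vehicle and 2.77 to 4.15 in TBBC arrays. Epcam made up most of that sum; the other 4 markers, Krt19, Krt7, Spp1 and Cftr, did not pass in limma (adjusted p 0.43 to 0.78) and their groups overlapped. None of the 6 Kupffer and myeloid, 5 stellate and endothelial, 4 lymphocyte and 2 skin markers tested passed in limma (1 at an unadjusted p under 0.05). The part of such cells in the results was not tested, and in bulk tissue fewer cells of a type and less RNA per cell cannot be told apart.

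TBBC livers held far more signal on at least 1 probe of each of 5 of the 6 genes. The untested probes, A_64_P137037 of Cyp2b12 and A_64_P021928 of Cyp2b15, were dim and their groups overlapped. Of the 15 probes, 13 were tested, of which 12 were well above background on all 6 arrays and 1 passed the filter through the TBBC arrays alone. Of the 13, 11 were higher with TBBC, by 2.95 to 6.13 on the log2 scale, and 1 was lower. The 11 include A_44_P482563, the probe that passed the filter through the TBBC arrays alone, at a value fitted to dim vehicle signals; its call was lost in 6 of 16 other settings. Among the 12 probes measured on all 6 arrays, 10 were higher. Over all tested probes, 1.78% were called higher and 1.43% lower. All 13 had groups that did not overlap, 11 with TBBC above vehicle (13.4% of all probes) and 2 with TBBC below (17.8% of all probes). A rise of at least 4 on the log2 scale was called for 25 probes on the whole array (0.0672%), and 7 of these were Cyp2b probes. The median difference was 4.18 over the 13 Cyp2b probes and -0.05 over all tested probes. With single arrays left out 10 or 11 Cyp2b probes passed, against 12 with all arrays, while the calls over all probes went from 1198 to between 145 (without TBBC replicate 2) and 496 (without TBBC replicate 1).

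**Figure D2:**
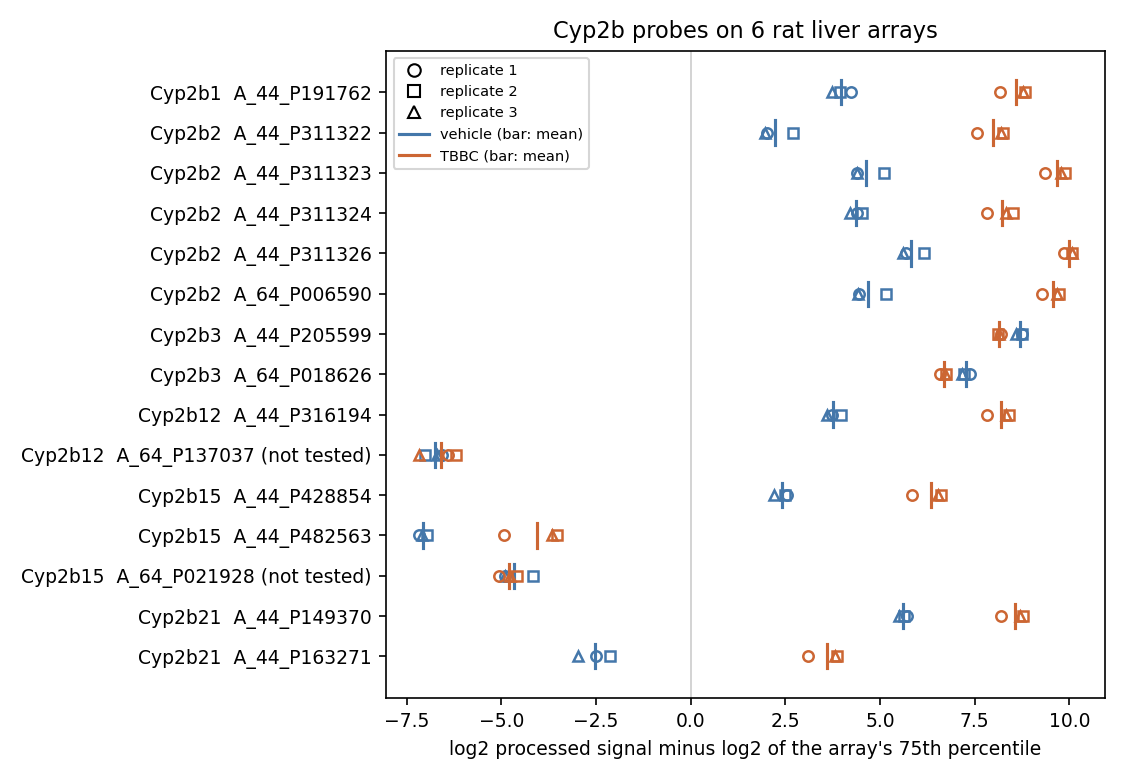
Signal of the 15 Cyp2b probes on each array, as log2 processed signal minus log2 of the array's 75th percentile. Symbols are single animals, blue for vehicle and orange for TBBC, and bars are group means (n = 3). The TBBC values of 11 probes lie to the right of all vehicle values, those of both Cyp2b3 probes lie to the left, and the groups overlap in the untested probes.

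Cyp2b1 encodes one of the 2 main phenobarbital-inducible enzymes of rat liver. Its probe A_44_P191762 gave scaled signals of 18.8, 15.4 and 13.3 on the vehicle arrays and 288.1, 456.8 and 439.9 on the TBBC arrays. The groups did not overlap, and the lowest TBBC value was above the highest vehicle value by 3.94 on the log2 scale. The rise was 4.63 ± 0.22 (SE, n = 3 per group), or 24.7-fold (95% interval 17.1 to 35.7), with an adjusted p of 0.000749 in limma.

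Cyp2b2, the close partner of Cyp2b1, rose on all 5 of its probes, but by amounts that ranged from 3.84 to 5.77. The largest rise was on A_44_P311322, with scaled signals of 4.07, 6.46 and 3.91 in vehicle and 188.4, 303.3 and 291.0 in TBBC animals. Its difference of 5.77 ± 0.27 is 54.5-fold (95% interval 35.1 to 84.6; limma adjusted p = 0.000731). The smallest rise was on A_44_P311324, which went from 20.9, 23.2 and 18.5 in vehicle to 226.0, 365.5 and 319.1 with TBBC, a difference of 3.84 ± 0.20 or 14.3-fold (10.3 to 20.0). The 95% intervals of these probes do not overlap, although both carry the same accession. They were picked as extremes, so the difference between them is given without a test.

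A_44_P311323 and A_64_P006590 lay between, at 5.05 ± 0.24 and 4.88 ± 0.24. Their vehicle signals were alike in pattern, 21.2, 34.2 and 21.0 on the first and 21.9, 35.6 and 21.2 on the second, with vehicle replicate 2 highest. With TBBC the first gave 660.9, 942.1 and 882.9 and the second 617.0, 848.3 and 816.7. Both again had TBBC replicate 1 lowest. A_44_P311326 gave 51.4, 71.8 and 49.2 in vehicle and 923.2, 1078 and 1077 in TBBC animals. It rose by 4.18 ± 0.17, or 18.1-fold. On this probe the brightest TBBC spot reached 86.3% of the scanner's saturation value, more than on any other Cyp2b probe, and no Cyp2b spot was saturated. TBBC values on it spread less (SD 0.13 on the log2 scale) than on the other Cyp2b2 probes (0.25 to 0.38). Whether brightness near the limit bears on the size of the difference was not tested.

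Cyp2b3, the member not known to respond to phenobarbital, had lower signal with TBBC on both probes, and 1 of them passed the test. A_44_P205599 gave 429.0, 433.8 and 388.5 in vehicle and 291.8, 277.3 and 281.1 in TBBC animals. The groups were separated by 0.41 on the log2 scale, and the difference was -0.56 ± 0.10 with a limma adjusted p of 0.0464. The second probe, A_64_P018626, gave 167.9, 148.7 and 144.8 in vehicle and 95.9, 106.6 and 105.1 in TBBC animals. Its difference of -0.58 ± 0.11 was of the same size, and its adjusted p of 0.0505 missed the threshold. The first call was lost in 10 of 18 other settings, including without each single array (adjusted p 0.0765 to 0.141), and the second probe passed in 4 of 17. Scaling on spike-in controls moved the median of all tested probes from -0.05 to 0.17 and gave -0.34 and -0.37 for the Cyp2b3 probes, neither past the threshold. Relative to the median of all tested probes, the values under the main scaling were -0.51 and -0.54.

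The change of Cyp2b2 was also set against that of Cyp2b3 within each animal, as the difference between the mean log2 signals of their probes relative to the vehicle mean. It was -0.24, 0.38 and -0.14 in vehicle animals and 5.02, 5.50 and 5.42 in TBBC animals. The groups differed by 5.31 without overlap, in an exact two-sided permutation test over the 6 arrays with p = 0.1, the smallest p that 20 arrangements allow.

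**Figure D3:**
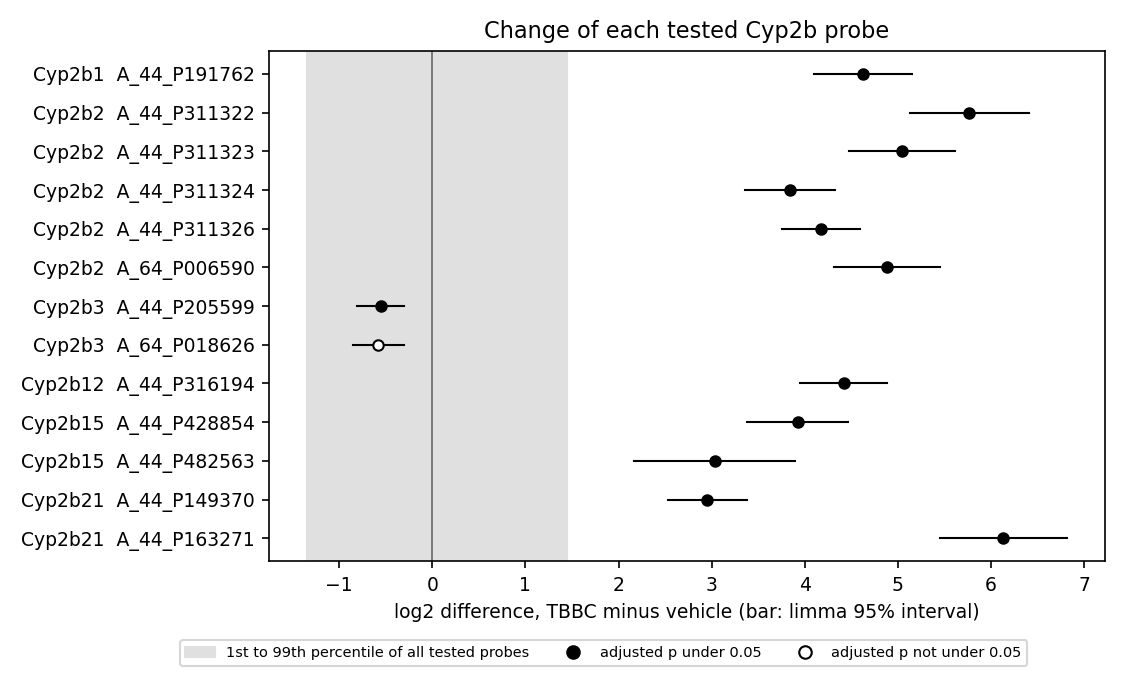
Difference between TBBC and vehicle for the 13 tested Cyp2b probes on the log2 scale, with limma's 95% interval (n = 3 per group). Filled points passed the threshold, and the grey band spans the 1st to 99th percentile of all 37222 tested probes. The value of A_44_P482563 was fitted to vehicle signals below background, 11 points lie beyond the band and both Cyp2b3 points lie inside it.

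Cyp2b12 and Cyp2b15 lie next to each other in the gene order apart from Cyp2b14, and their promoter windows are the second most alike among the members. The Cyp2b12 probe A_44_P316194 gave 13.3, 15.8 and 12.1 in vehicle and 225.2, 342.2 and 322.3 in TBBC animals. It rose by 4.42 ± 0.20, or 21.4-fold (15.5 to 29.5; limma adjusted p = 0.000727). The other Cyp2b12 probe, A_64_P137037, was not well above background on any of the 6 arrays and was not tested.

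The 3 probes of Cyp2b15 differed in level and in response. A_44_P428854 gave 5.85, 5.65 and 4.57 in vehicle and 57.9, 98.1 and 92.7 in TBBC animals, a rise of 3.92 ± 0.23 or 15.2-fold (limma adjusted p = 0.00152). A_44_P482563 stayed dim on all 3 vehicle arrays, with no spot well above background, and was above it on all 3 TBBC arrays, at 0.0327, 0.0860 and 0.0786. Set against the lowest signal well above background on each vehicle array, the TBBC mean was 1.93-fold higher. Spots somewhat brighter than that level were not always well above background, so this bound is approximate. That bound was 1.61-fold when TBBC replicate 2 was left out and 2.62-fold when TBBC replicate 1 was left out. Fitted to the dim vehicle signals themselves, the difference was 3.03 (limma adjusted p = 0.0171), and it was 0.54 after normexp correction (adjusted p = 0.0815); leaving out any single array other than TBBC replicate 1 ended the call (adjusted p 0.0512 to 0.0698). The third probe, A_64_P021928, was above background on 1 array of each group, its groups overlapped, and it was not tested.

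Cyp2b21, a member first known from the rat oesophagus, had the largest and the smallest rise among the probes measured on all 6 arrays. On A_44_P163271 the scaled signal was 0.178, 0.228 and 0.127 in vehicle and 8.61, 14.68 and 14.01 in TBBC animals. This rise of 6.13 ± 0.29 is 70.1-fold (95% interval 43.7 to 113; limma adjusted p = 0.000731). On A_44_P149370 the scaled signal was 52.5, 49.4 and 45.1 in vehicle and 296.0, 442.2 and 416.2 in TBBC animals. This rise of 2.95 ± 0.18 is 7.75-fold (5.79 to 10.4; limma adjusted p = 0.0017). The rises on these probes of 1 accession differ by 3.18 on the log2 scale.

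Probes of the subfamily can bind RNA of more than 1 member, since coding sequences of close members are very alike. The value of a single gene is therefore uncertain, and the 13 tested probes are not 13 independent measurements. Probe sequences were not used here, so the share of each signal that comes from another member was not tested. Probes of the same gene differed in their change by 1.93 for Cyp2b2, 0.89 for Cyp2b15 (with the dim probe at its fitted value) and 3.18 for Cyp2b21, but by 0.03 for Cyp2b3.

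Within the groups, the rising probes followed the same animals. TBBC replicate 1 was the lowest TBBC array on 11 of 11 rising Cyp2b probes, lying 0.15 to 0.89 below the group mean on the log2 scale. The value of 0.89 belongs to the dim probe A_44_P482563, and without that probe the count was 10 of 10. TBBC replicates 2 and 3 were above the mean on all 11. Among the 664 probes called higher on the whole array, TBBC replicate 1 was lowest on 329 (49.5%). Among the 129 of these with a log2 difference of at least 2, it was lowest on 80 (62%). In the vehicle group, replicate 2 was highest on all 5 Cyp2b2 probes, by 0.16 to 0.48 above the group mean, and on 3 of the 6 other rising probes. Over the whole array, vehicle replicate 2 was highest on 215 of the 664 probes called higher (32.4%). Of the 129 with a log2 difference of at least 2, it was highest on 62 (48.1%). On the Cyp2b1 probe, vehicle replicate 1 was highest, and vehicle replicate 2 was 0.03 below the mean. Vehicle replicate 3 was below the mean on all 11. Since the rising probes may bind the same RNA, such agreement is a description only.

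**Figure D4:**
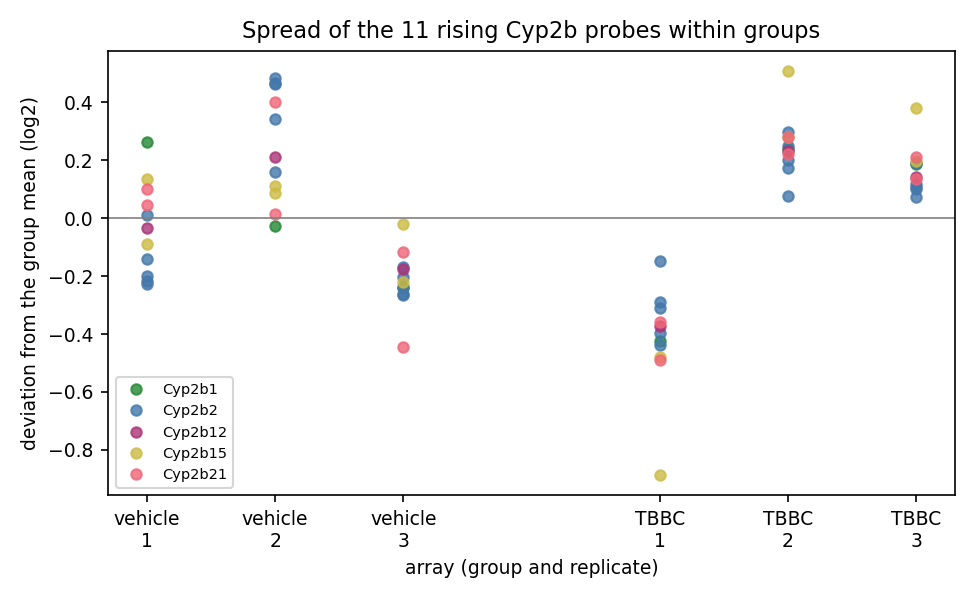
Deviation of each array from its group mean on the log2 scale for the 11 rising Cyp2b probes, coloured by gene. All 11 points of TBBC replicate 1 lie below 0 and all points of TBBC replicates 2 and 3 above it; in vehicle animals the Cyp2b2 points are highest in replicate 2.

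Among the receptors and cofactors that act on these genes, each taken by its brightest probe, no RNA passed the test. Of 18 tested genes of CAR, PXR and their partners, 0 passed in limma (1 higher and 4 lower at an unadjusted p under 0.05), against 1.97% higher and 1.34% lower among the 11235 named genes tested, and their median difference was -0.15. In other settings 1 passed as higher and 2 as lower with normexp, 1 as lower with array weights, 1 as lower with the replicate block and 1 as higher without TBBC replicate 3. CAR (Nr1i3) gave 9.84, 9.67 and 9.72 in vehicle and 10.5, 12.3 and 9.43 in TBBC animals, with a difference of 0.13 ± 0.13 (limma adjusted p = 0.565). Over its 4 tested probes the differences ran from 0.13 to 0.35. PXR (Nr1i2) differed by -0.03 ± 0.16 (limma adjusted p = 0.937), and by 0.18 on its other tested probe. Both receptors were singled out after their values had been seen. The largest difference of the list was that of Nr0b2, at -1.885 ± 0.42 without group overlap (limma adjusted p = 0.0674). The brightest genes of the list were the cytosolic chaperones of the CAR complex, Hsp90aa1 at 0.79 ± 0.20 (limma adjusted p = 0.086) and Hsp90ab1 at 0.28 ± 0.18 (limma adjusted p = 0.379). Hsp90aa1 passed with normexp (adjusted p = 0.0362 in limma) and without TBBC replicate 3 (adjusted p = 0.0414 in limma). Activity of a receptor is not measured by its RNA.

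Some genes of electron supply and haem metabolism for cytochromes were higher. Besides haem synthesis, the list held the haem breakdown genes Hmox1, Blvra and Blvrb. Of 16 tested, 4 rose and 0 fell in limma (8 higher and 1 lower at an unadjusted p under 0.05), against 1.97% higher and 1.34% lower among all named genes, with a median of 0.49. Por, the reductase that feeds electrons to every microsomal cytochrome P450, gave 9.92, 7.53 and 8.93 in vehicle and 20.7, 41.1 and 34.0 in TBBC animals. It rose by 1.81 ± 0.26 (limma adjusted p = 0.0269). The electron carriers Cyb5b and Cyb5a rose by 1.04 ± 0.14 and 0.75 ± 0.12, and the haem-binding cytochrome partner Pgrmc1 by 0.66 ± 0.11. A second, dimmer probe of Cyb5b differed by 0.36 only. Under the main scaling no gene of haem synthesis or haem breakdown passed. Of the synthesis genes, Alas1 differed by 1.495 ± 0.33 (limma adjusted p = 0.066) and Cpox by -0.41 ± 0.16 (limma adjusted p = 0.189). The 4 calls were few with any single array left out, 0 genes in 5 cases and 1 gene without TBBC replicate 1.

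Among other cytochromes of drug metabolism some genes were higher. Of 28 tested, 5 rose and 0 fell in limma (12 higher and 3 lower at an unadjusted p under 0.05), against the same 1.97% and 1.34% of named genes, with a median of 0.26. One of the 5, Cyp1a1, passed the filter through the TBBC arrays alone. Cyp2c24 gave 0.0653, 0.228 and 0.499 in vehicle and 27.4, 74.7 and 72.0 in TBBC animals. Its rise of 8.08 ± 0.76 did not pass without TBBC replicate 2 (limma adjusted p = 0.0521). Cyp3a23-3a1, a PXR-responsive member of the Cyp3a subfamily, gave 61.5, 50.4 and 39.5 in vehicle and 239.7, 433.8 and 335.7 in TBBC animals. This was a rise of 2.72 ± 0.26 (limma adjusted p = 0.00894). Cyp2c6v1 rose by 1.34 ± 0.12 and Cyp2d2 by 0.72 ± 0.13. Cyp1a1, the classical target of the aryl hydrocarbon receptor, was below background in vehicle and had a TBBC mean at least 1.61-fold higher. Leaving out TBBC replicate 3 lowered that bound to 1.18-fold. Its call was lost in 7 of 17 other settings, among them normexp, where the difference was 0.43 (limma adjusted p = 0.148). Without single arrays, 2 (without TBBC replicate 2) to 4 (without TBBC replicate 3) of these genes passed, and 3 in each other case.

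Targets of CAR and PXR outside the cytochromes held 23 tested genes, of which 14 rose and 0 fell in limma (18 higher and 0 lower at an unadjusted p under 0.05), against 1.97% higher and 1.34% lower among all named genes, with a median of 1.102. The list was drawn up with results of these data known, so its direction is no independent evidence. The efflux transporter Abcc3 rose by 4.96 ± 0.21, the sulfotransferase Sult2a6 by 4.91 ± 0.35 and the glutathione transferase Gstm3 by 4.69 ± 0.25. The carboxylesterase Ces2c rose by 3.34 ± 0.28, the stress-inducible Gadd45b by 3.22 ± 0.28 and the glucuronosyltransferase Ugt2b1 by 2.31 ± 0.15. All 6 kept their calls in each of 18 other settings, whereas the count of 14 went to between 7 (without TBBC replicate 2) and 10 (without TBBC replicate 3) when single arrays were left out, with 8 or 9 in the other cases.

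**Figure D5:**
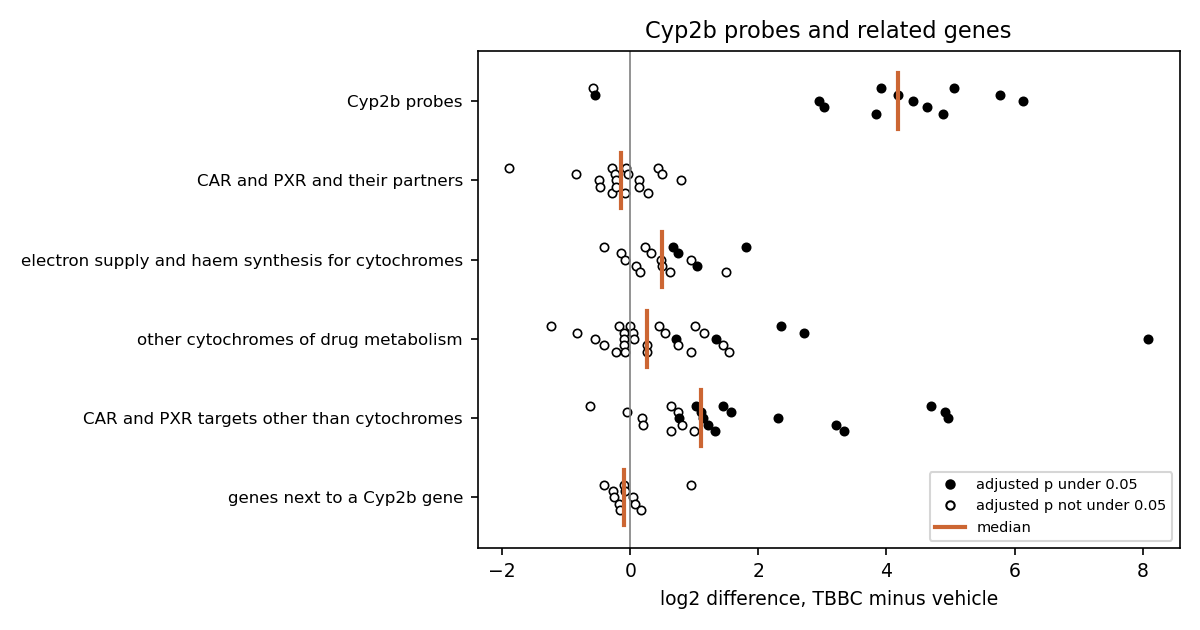
Log2 difference between TBBC and vehicle for the 13 tested Cyp2b probes and for the genes of 5 related lists, 1 point per probe or gene. Filled points passed the threshold and orange bars are medians; the Cyp2b median is 4.18, the list medians run from -0.15 to 1.102, and Cyp1a1 and A_44_P482563 are shown at values fitted to dim vehicle signals.

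In the gene order of assembly GRCr8 the Cyp2b genes stand together, running Cyp2b1, Cyp2b2, Cyp2b3, Cyp2b21, Cyp2b14l1, Cyp2b12, Cyp2b14 and Cyp2b15, with the cytochromes Cyp2s1 before them and Cyp2g1, Cyp2a3, Cyp2a1 and Cyp2a2 after them. Of 24 other genes within 10 places of a member, 11 were tested, each by its brightest probe. None passed in limma (1 higher and 2 lower at an unadjusted p under 0.05), and their median difference was -0.10. Among all named genes tested, 1.97% passed as higher and 1.34% as lower. With shares so small, 11 genes are too few to show that the neighbours were unaffected. Cyp2a1, a steroid hydroxylase gene, gave 31.6, 23.2 and 20.3 in vehicle and 31.7, 53.2 and 63.0 in TBBC animals. Its groups did not overlap but came close, and its difference was 0.95 ± 0.29 (limma adjusted p = 0.128). On its other tested probe the difference was 1.498. The adjoining Cyp2a2 differed by -0.08 ± 0.11 and Cyp2s1 by 0.05 ± 0.14. Dimmer probes outside the count reached -0.6323 for Ccdc97 and -0.612 for Hnrnpul1. All tested probes of Cyp2s1, Cyp2a2, Axl and Cyp2t1 lay between -0.1837 and 0.1079. Cyp2b3 stands between Cyp2b2 and Cyp2b21, whose probes rose.

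The genes most like the inducible members were sought by the distance of their profile over the 6 arrays from the mean profile of the Cyp2b1 and Cyp2b2 probes, each relative to its vehicle mean. Among 10999 candidate genes the 6 nearest were Gstm3 at a root mean square distance of 0.28 on the log2 scale, Abcc3 at 0.32, Sult2a6 at 0.58, Ropn1l at 0.82, the sulfotransferase Sult2a2 at 0.87 and Grin2c, a subunit of the NMDA glutamate receptor, at 0.89. Their rises ran from 3.74 ± 0.42 for Ropn1l to 4.96 ± 0.21 for Abcc3. Ropn1l was above background on 2 of 3 vehicle arrays and passed the filter through the TBBC arrays. With normexp its rise was 1.94, and that of Sult2a2 was 2.60 in place of 4.30. The reference profile was -0.08, 0.31 and -0.23 in vehicle and 4.39, 4.93 and 4.85 in TBBC animals. Gstm3 followed it closely in size but not in the order of TBBC animals, with 4.78, 4.70 and 4.58, whereas Abcc3 had TBBC replicate 1 lowest, at 4.81 against 5.05 and 5.02. The calls of Grin2c and Sult2a2 were lost in 7 and 6 of 18 settings and that of Ropn1l in 2 of 17. Ranked instead by the shape of the profile alone (Pearson's r, not printed since the arrays form 2 separate groups), the nearest were Ankrd44, Glb1l, Rac1, Abcc3, Cd47 and Gstm3. Of these, Rac1 differed by 0.36 ± 0.10 and did not pass (limma adjusted p = 0.0994).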

How the data were processed

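Per the file headers, the authors extracted each array with Agilent Feature Extraction 10.7.1.1 (10.7 in the submitters' processing notes), which deposited a background-subtracted processed intensity per spot, with flags for background, saturation and outliers. The headers name build rn4 for the array design. The deposited value table holds the same intensity, uncentred and on a linear scale, times 1 constant per array (column medians 0.1013, 0.1077 and 0.1033 for vehicle and 0.0977, 0.0972 and 0.0974 for TBBC). The replicates are separate animals, per the labels' protocols.

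Probes were named through RefSeq accessions in the gene table of GRCr8 (28206 of 61537 probes). Values were the log2 ratio of processed intensity to the 75th percentile of its array. Control spots and 25 probes with an outlier flag were left out, and a probe entered the test, on its own, where every array of either group had it well above background, with limma 3.58.1 in R 4.3.3 (lmFit, eBayes, no covariate, two-sided). Of a listed gene's probes, the one brightest on average was used. For a probe dim throughout a group only an approximate bound is given, set against the higher of its own signal and the lowest signal well above background on each array. Promoter windows are RefSeq's; they were aligned with Biopython 1.88. The planned normexp correction used median spot signals, and the limma code was tested on simulated data.

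The members, lists and tests were chosen with earlier results of these data known. Named are every Cyp2b probe, up to 6 members past the threshold of each list (or 2 with the highest signal), and the 6 nearest profiles. Alternatives were the normalization, centring, filters, background correction, variance model, array weights, a replicate block, the deposited table, 1 probe per gene and single arrays left out; spike-in scaling was added after seeing the data.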

Additional observations from a re-analysis of the deposited data

How the results depend on the processing

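The 11 rises of Cyp2b probes kept their direction under all 18 alternatives that gave a value, and 10 of them kept their call in each; the exception was the dim Cyp2b15 probe A_44_P482563, whose call was lost in 6 of 16. Over the 13 Cyp2b probes, 206 of 226 values kept both direction and call, 16 lost a call, 4 gained one and 0 reversed. For the other 24 named genes, 342 of 430 kept both, 86 lost a call, 2 gained one and 0 reversed. Among counts of calls, 1198 probes over the array became 264 without a filter on dim probes, 2103 with normexp, 298 with the replicate block and 145 to 496 with 1 array left out. The 23 genes of the 4 related lists became 11 without the filter, 13 with the replicate block and 9 to 15 with 1 array left out. By list, without the filter 0 genes of electron supply, 3 other cytochromes and 8 other targets passed, and with the block 0, 4 and 8. With 1 probe per gene the 12 Cyp2b calls became 6, because only 6 probes were then tested. Apart from these constructions, the cause was not tested. The split of 664 higher and 534 lower probes became 1051 and 392 with median centring and 733 and 164 with spike-in scaling.

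Deviations of same-numbered animals of the 2 groups were weakly correlated at most (0.0049, -0.032 and 0.15 for replicates 1, 2 and 3). The value for replicate 3 was the highest of all pairs. Vehicle replicate 1 correlated best with TBBC replicate 2 (0.093), and vehicle replicate 2 with TBBC replicate 1 (0.096). The numbers were not taken to pair the animals. Under the replicate block the call of the Cyp2b3 probe A_44_P205599 was lost (adjusted p = 0.115). The change of Cyp2b2 against Cyp2b3 was 5.19 to 5.50 with single arrays left out, 5.33 with quantile normalization and 5.22 with normexp. Signal over background limits A_44_P482563, A_64_P137037 and A_64_P021928, and the scanner's upper limit is nearest for A_44_P311326.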
